A study of Mus musculus with 12 samples.

Results

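The genes described here are 10 genes of the hypoxia response and of glycolysis, measured in 12 mouse pancreas tumours. They are Slc2a1, Hk2, Pfkp, Pgk1, Ldha, Car9, Vegfa, Adm, Bnip3 and Ndrg1, and each was read from the probe set with the highest mean among those that the platform annotation gives to that gene alone. All 10 were found among the 30142 genes measured. The tumours fell into 4 groups of 3, each from 3 mice per the series text: FAP depleted, FAP-TK control, aSMA depleted and aSMA-TK control. All 12 came from mice with the PKT genotype, a genetic mouse model of pancreatic ductal adenocarcinoma. FAP, encoded by Fap, marks activated fibroblasts, and aSMA, encoded by Acta2, marks smooth muscle cells, pericytes and contractile fibroblasts. TK is thymidine kinase, which converts ganciclovir into a product that kills cells that carry the enzyme, chiefly while they divide. The labels give ganciclovir at 50 ug/kg for every tumour and mark the controls as having no depletion, so whether the controls received the drug is not clear. The labels name no strain, age or time of treatment, and no promoter for the TK gene beyond the line's name.

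Cells short of oxygen stop degrading the alpha subunits of the hypoxia-inducible factors (HIFs), which pair with ARNT and bind a short core motif in DNA. The genes they switch on take up glucose and break it down to lactate, remove acid from the cell, attract blood vessels, and alter mitochondria and growth. Pancreatic ductal adenocarcinoma has dense stroma and few open vessels and is known for low oxygen.

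The HIF core motif was searched for in the promoters of the 10 genes, since it is the sequence that the members have in common in textbook accounts of their control. RefSeq promoters on build GRCm38.p6 were at hand for 9 of the 10 genes, Ndrg1 being the one without. The letters ACGTG or GCGTG, on either strand, stood in the 250 bases before the start in 10 of the 11 promoters listed for these genes, against 12679 of 32851 promoters in all (38.6%). The 1 without it was 1 of the pair listed for Vegfa. A match is a description of these letters and not a binding site. The members are known for this control, so their higher share is not a test of it. The 150 bases before the start are printed below for 5 genes, chosen to show the glucose transporter, 2 glycolytic enzymes with different results, the mitochondrial gene and the one gene that passed a test. Each runs 5′ to 3′ in the direction of the gene, with the motif in capitals, and CACGTG holds the motif on both strands. They lie at chr4:119108595-119108744 on the plus strand for Slc2a1, chrX:106186950-106187099 on the plus strand for Pgk1, chr7:46845654-46845803 on the plus strand for Ldha, chr4:43506876-43507025 on the plus strand for Car9 and chr7:138909507-138909656 on the minus strand for Bnip3.
Slc2a1: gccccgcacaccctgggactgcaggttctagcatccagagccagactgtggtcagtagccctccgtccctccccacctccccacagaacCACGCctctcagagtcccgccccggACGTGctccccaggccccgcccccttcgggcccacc
Pgk1: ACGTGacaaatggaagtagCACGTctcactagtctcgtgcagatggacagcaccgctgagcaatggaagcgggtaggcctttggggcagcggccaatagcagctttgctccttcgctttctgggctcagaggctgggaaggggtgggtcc
Ldha: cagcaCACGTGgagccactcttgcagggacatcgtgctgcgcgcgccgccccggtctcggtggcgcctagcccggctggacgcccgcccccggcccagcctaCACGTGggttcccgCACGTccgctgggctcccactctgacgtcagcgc
Car9: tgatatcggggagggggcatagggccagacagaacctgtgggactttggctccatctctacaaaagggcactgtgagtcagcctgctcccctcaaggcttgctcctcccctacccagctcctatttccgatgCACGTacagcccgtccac
Bnip3: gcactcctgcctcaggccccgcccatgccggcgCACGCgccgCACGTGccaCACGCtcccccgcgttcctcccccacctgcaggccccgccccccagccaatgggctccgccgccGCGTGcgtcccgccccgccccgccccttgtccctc
Ldha and Bnip3 had 5 motif matches each in these windows, Slc2a1 and Pgk1 had 2, and Car9 had 1.

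All values below are log2 intensities after quantile normalization between arrays, and a difference is a difference of group means on that scale with its standard error (SE). Negative-control probe sets had median deposited values of 5.46 to 6.49 on the 6 arrays of the FAP line and 4.46 to 4.88 on the 6 arrays of the aSMA line. The separation of positive from negative control probe sets was 2.69 to 2.99 on 3 arrays of the FAP line (FAP depleted replicate 2, FAP-TK control replicates 1 and 3) and 4.32 to 4.89 on the other 9. Fap was lower in the FAP depleted tumours, at 5.52, 5.34 and 6.21, against 6.56, 7.31 and 6.53 in the FAP-TK control tumours. These Fap values lay near the negative-control medians of that line, so the size of the difference is uncertain. Fap, like every other gene, did not pass the test of this comparison described below. Acta2 was at 10.13, 13.86 and 15.28 in the tumours labelled aSMA depleted, against 12.26, 10.85 and 11.12 in the aSMA-TK control tumours, which does not show the loss that this label names. Ductal epithelial markers averaged 12.80 to 14.84 in all 12 tumours, and none of the 12 lacked them. In whole tumours, fewer cells of a type and less RNA per cell cannot be told apart.

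The comparison of FAP depleted with FAP-TK control tumours asks how these genes differ when FAP-positive cells are removed. Of the 10 genes, 9 were higher and Hk2 was lower in the FAP depleted tumours, and of all genes 59.9% were higher. The median difference of the 10 was 0.42, against 0.04 over all genes. Ndrg1, a hypoxia-induced regulator of growth and differentiation, was higher by 1.36 ± 0.55 and the glycolytic enzyme gene Pgk1 by 1.32 ± 0.45 (SE, n = 3 per group). None of the 10 passed limma's test, and 0% of the 30142 genes did, nor did any by an unmoderated two-sample test. At an unadjusted p under 0.05 there were 2 of the 10, Pgk1 and Ndrg1, and 1117 of all genes (3.71%). Depleted and control values did not overlap for 1 gene, Pgk1, against 8.1% of all genes and 5.6% in the higher direction.

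The higher values came mainly from 1 tumour. FAP depleted replicate 3 had the highest value of the 6 tumours of its line for 8 of the 10 genes, and the highest of all 12 tumours for 6. The mean of the 10 genes was 9.40, 9.29 and 10.95 in the FAP depleted tumours, against 8.97, 9.57 and 9.51 in the FAP-TK control tumours. Without FAP depleted replicate 3, 5 of the 10 genes were higher and their median difference was 0.04, against 0.01 over all genes. Leaving out the 3 arrays of low control-probe separation kept only FAP-TK control replicate 2, against FAP depleted replicates 1 and 3. There 8 of the 10 were higher, with a median of 0.52. Leaving out any single array of the line but FAP depleted replicate 3 gave medians from 0.19 (FAP-TK control replicate 1) to 0.82 (FAP depleted replicate 2). The same tumour stood apart in immediate early genes, which respond within minutes to stress and handling: their mean was 10.30 there, against 6.56 to 8.12 in the other 11 tumours. All 8 measured immediate early genes were higher in the FAP depleted group, where the list mean ran from 6.64 to 10.30, against 6.56 to 7.68 in the FAP-TK control group. Markers of cell types differed between these groups as well. Ductal epithelial markers were higher for 8 of 8 in the FAP depleted tumours, with list means of 13.04 to 14.84, against 12.80 to 13.82 in the FAP-TK control tumours, and FAP depleted replicate 3 had the highest. Acinar markers were higher for 7 of 7, with list means of 8.23 to 10.10, against 6.92 to 8.58 in the FAP-TK control tumours. Fibroblast markers were lower for 7 of 7, with list means of 7.71 to 10.04, against 9.11 to 10.38 in the FAP-TK control tumours. The part of these genes in the result was not tested.

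Tumours labelled aSMA depleted were compared with aSMA-TK control tumours to ask the same of aSMA-positive cells. Of the 10 genes, 7 were higher and Car9, Hk2 and Ldha were lower, and of all genes 53.2% were higher. The median difference of the 10 was 0.63, against 0.01 over all genes. Adm, which encodes the vasodilator peptide adrenomedullin, was higher by 1.73 ± 0.97 and Bnip3, a mitophagy receptor gene, by 0.96 ± 0.72 (SE, n = 3 per group). None of the 10 passed limma's test (adjusted p of 0.944 to 0.994), and 0% of all genes did. No member was at an unadjusted p under 0.05, against 1450 of all genes (4.81%). Pgk1 alone did not overlap between the groups, against 12.5% of all genes and 7.43% in the higher direction.

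In this line too 1 tumour was highest for most of the genes. The mean of the 10 genes was 9.49, 10.31 and 9.42 in the tumours labelled aSMA depleted, against 9.07, 9.00 and 9.64 in the aSMA-TK control tumours. Replicate 2 of the tumours labelled aSMA depleted had the highest value of the 6 tumours for 6 of the 10 genes. Without it 7 of the 10 genes were again higher, and their median difference was 0.21. Leaving out any other array of the line gave medians from 0.43 (aSMA-TK control replicate 2) to 0.90 (aSMA-TK control replicate 3). Macrophage markers were higher in this group for all 7 measured, with list means of 10.15 to 10.46, against 8.45 to 9.61 in the aSMA-TK control tumours, and their part in the result was not tested.

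**Figure D1:**
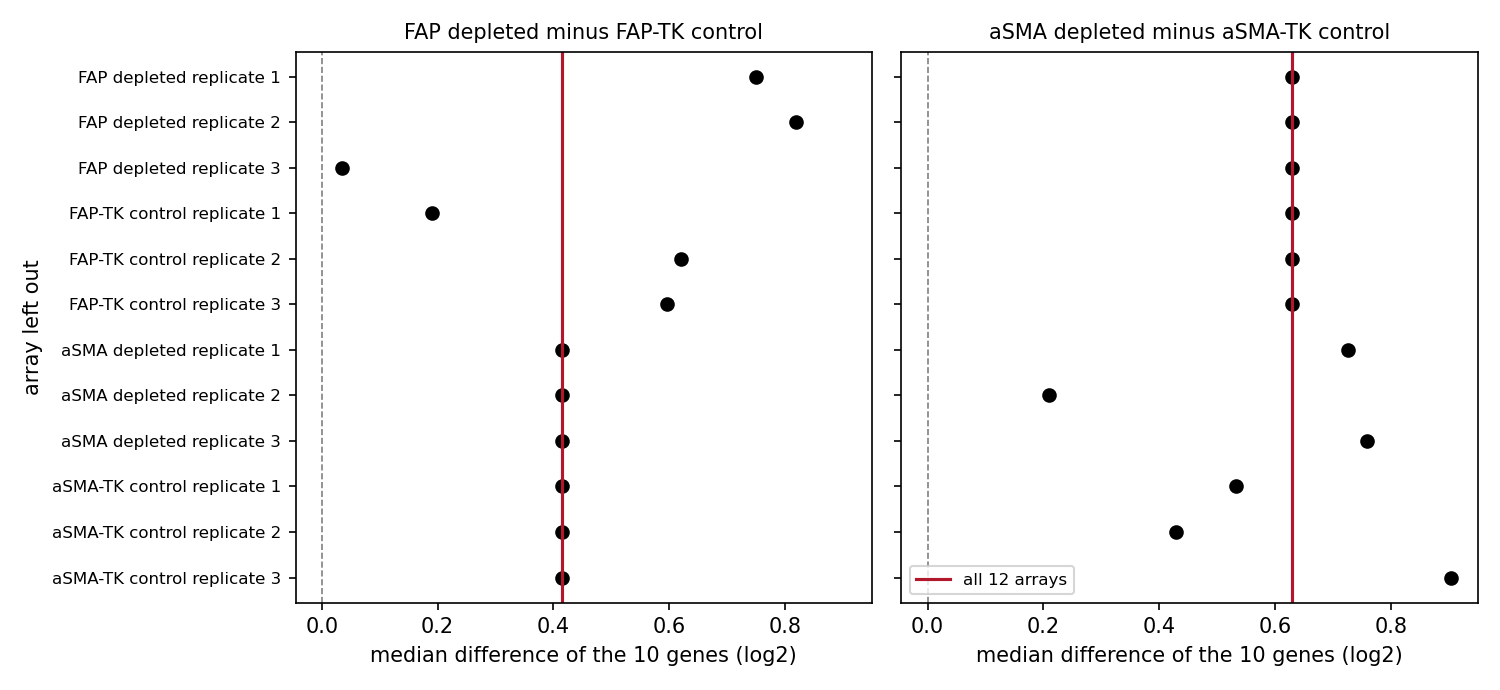
Median difference of the 10 genes (log2, horizontal axis) after each of the 12 arrays was left out (rows), for FAP depleted minus FAP-TK control on the left and aSMA depleted minus aSMA-TK control on the right. The red line is the value with all 12 arrays, 0.42 on the left and 0.63 on the right. The lowest points are 0.04 without FAP depleted replicate 3 and 0.21 without aSMA depleted replicate 2.

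Glucose enters the cell through the transporter encoded by Slc2a1 (GLUT1). Slc2a1 was at 11.61, 9.97 and 12.77 in the FAP depleted tumours, against 9.81, 11.75 and 10.51 in the FAP-TK control tumours. It was at 10.89, 11.97 and 10.70 in the tumours labelled aSMA depleted, against 10.47, 10.19 and 11.37 in the aSMA-TK control tumours. Both pairs of groups overlapped, and FAP depleted tumours lay both near the bottom and at the top of the range. The difference was 0.76 ± 0.72 in the FAP line, with a 95% interval of -0.86 to 2.38, and 0.51 ± 0.72 in the aSMA line, with an interval of -1.11 to 2.13.

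Hk2 encodes hexokinase 2, which traps glucose as glucose 6-phosphate, and Pfkp encodes the platelet form of phosphofructokinase, the next committed step. Hk2 had values of 8.00, 6.61 and 8.41 in the FAP depleted tumours, against 8.56, 7.71 and 7.80 in the FAP-TK control tumours. It had 6.84, 9.14 and 7.73 in the tumours labelled aSMA depleted, against 7.86, 7.90 and 8.30 in the aSMA-TK control tumours. In the FAP line 1 depleted tumour was below every control, and in the aSMA line 2 were below and 1 was above every control. The differences were -0.35 ± 0.59 and -0.12 ± 0.59. Pfkp spanned only 7.07 to 8.30 over the 12 tumours. It was at 7.34, 7.25 and 8.30 in the FAP depleted tumours, against 7.31, 7.43 and 7.95 in the FAP-TK control tumours, a difference of 0.07 ± 0.27. Pfkp was at 7.50, 7.49 and 7.07 in the tumours labelled aSMA depleted, against 7.13, 7.17 and 7.27 in the aSMA-TK control tumours, a difference of 0.16 ± 0.27.

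Pgk1 encodes phosphoglycerate kinase 1, which makes ATP in the second phase of glycolysis. It had values of 15.33, 14.75 and 16.79 in the FAP depleted tumours, against 13.93, 14.75 and 14.24 in the FAP-TK control tumours. The groups were kept apart by a margin in the third decimal, with the lowest depleted value at 14.748 and the highest control value at 14.745. Pgk1 had 14.42, 14.74 and 14.81 in the tumours labelled aSMA depleted, against 13.74, 13.51 and 14.20 in the aSMA-TK control tumours. There the depleted values lay close together (SD 0.20) and above all controls, by 0.84 ± 0.45 (unadjusted p = 0.0925 and adjusted p = 0.944, limma). The FAP line's difference had an unadjusted p of 0.0155 and an adjusted p of 1.00 (limma). By group mean, Pgk1 ran from FAP depleted (15.62 ± 1.05) through aSMA depleted (14.66 ± 0.20) and FAP-TK control (14.30 ± 0.41) to aSMA-TK control (13.81 ± 0.35, SD, n = 3 each), and the moderated F test over the 4 groups gave an adjusted p of 0.106.

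The identity of this probe set is in doubt. Its identifier names chromosome 12, while RefSeq places Pgk1 on chromosome X and lists a pseudogene, Pgk1-rs7, on chromosome 12. The chromosome in the identifier equals that of RefSeq for 22533 of 22625 probe sets with 1 gene (99.6%) and for 9 of the 10 genes here. The array holds a Pgk1 probe set named for chromosome X as well. It had values of 13.09, 12.59 and 14.00 in the FAP depleted tumours, against 11.48, 12.40 and 12.15 in the FAP-TK control tumours, again without overlap and by 1.22 ± 0.36 (unadjusted p = 0.00724, adjusted p = 1.00, limma). This probe set had 12.32, 12.81 and 12.74 in the tumours labelled aSMA depleted, against 12.06, 12.04 and 12.59 in the aSMA-TK control tumours. There the groups overlapped, with a difference of 0.39 ± 0.36, so the lack of overlap in the aSMA line rests on the chromosome 12 probe set. The FAP line's difference had nearly the same size in both.

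**Figure D2:**
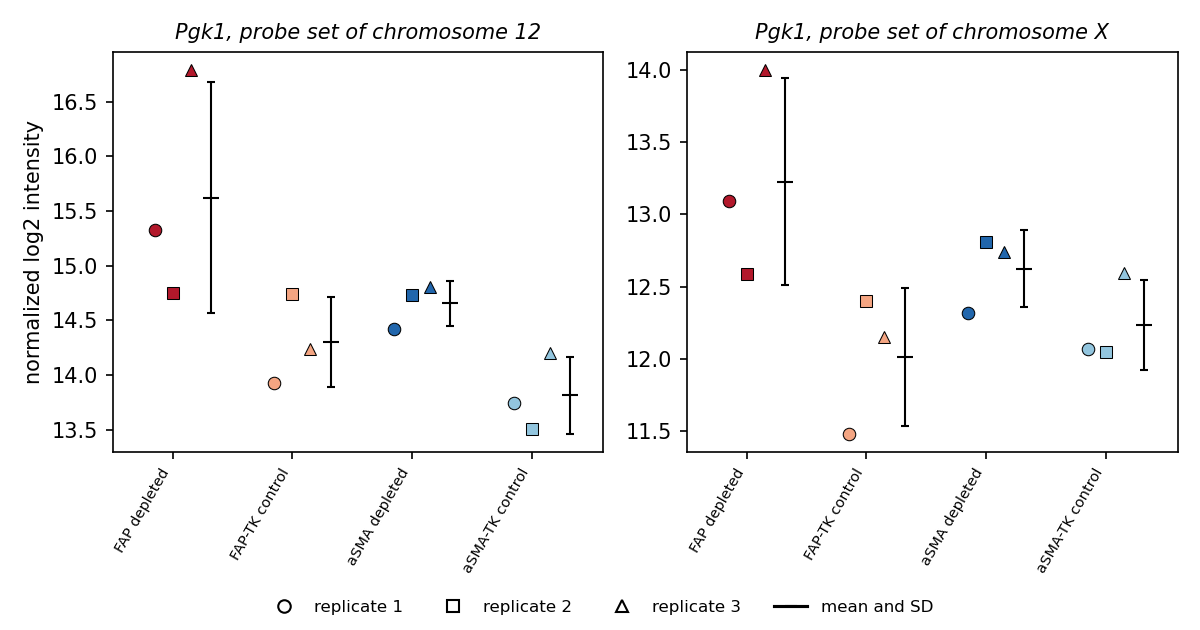
Normalized log2 intensity (vertical axis) of both Pgk1 probe sets in every tumour, with the probe set named for chromosome 12 on the left and that named for chromosome X on the right. Points are tumours, marker shapes are replicates, and bars are the mean and SD of 3 tumours. The FAP depleted tumours lie above the FAP-TK control tumours in both panels, and the groups of the aSMA line overlap in the right panel only.

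Ldha encodes the muscle-type subunit of lactate dehydrogenase, which turns pyruvate into lactate. It was at 11.18, 10.20 and 11.91 in the FAP depleted tumours, against 9.56, 11.56 and 11.04 in the FAP-TK control tumours. In the aSMA line it lay between 10.57 and 11.04 in all 6 tumours, at 10.66, 11.04 and 10.60 in the tumours labelled aSMA depleted, against 10.57, 10.87 and 11.04 in the aSMA-TK control tumours. The differences were 0.38 ± 0.52 in the FAP line and -0.06 ± 0.52 in the aSMA line. The 95% interval of -1.22 to 1.10 in the aSMA line bounds the size of a difference there and does not show that there was none.

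Car9 encodes carbonic anhydrase 9, a surface enzyme that helps acid leave hypoxic cells. It had values of 9.49, 9.50 and 10.74 in the FAP depleted tumours, against 8.48, 10.34 and 9.08 in the FAP-TK control tumours. Car9 was at 10.92, 10.47 and 10.90 in the tumours labelled aSMA depleted, against 11.24, 10.84 and 11.73 in the aSMA-TK control tumours. The groups of each line overlapped. Car9 and Ldha were the members whose differences had opposite signs in the lines, and for Car9 they were 0.61 ± 0.49 in the FAP line and -0.51 ± 0.49 in the aSMA line. The difference between these effects was 1.11 ± 0.69, with an adjusted p of 0.852 (limma).

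Vegfa and Adm encode secreted factors, the first the main growth factor for blood vessels and the second a peptide that widens and seals them. Vegfa was at 9.85, 10.84 and 10.94 in the FAP depleted tumours, against 9.93, 9.85 and 10.86 in the FAP-TK control tumours. It was at 10.05, 11.03 and 9.34 in the tumours labelled aSMA depleted, against 9.27, 9.08 and 9.82 in the aSMA-TK control tumours. Groups overlapped in both lines, with differences of 0.33 ± 0.47 and 0.75 ± 0.47. Adm was at 5.19, 5.35 and 8.92 in the FAP depleted tumours, against 6.00, 6.02 and 6.08 in the FAP-TK control tumours. The controls lay close together (SD 0.04), while 2 depleted tumours were below all of them and replicate 3 was far above. Without replicate 3 the FAP line's difference turned to -0.76, against 0.45 ± 0.97 with it. Adm was at 5.68, 8.38 and 6.59 in the tumours labelled aSMA depleted, against 4.48, 5.09 and 5.89 in the aSMA-TK control tumours. Its difference of 1.73 ± 0.97 there was 0.98 without replicate 2 of the depleted tumours. Adm was above the median of the negative-control probe sets on 8 of the 12 arrays, so part of its range lay near the array's background.

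Bnip3 encodes a mitochondrial receptor that marks mitochondria for removal, and Ndrg1 a stress-induced protein that is widely used as a marker of hypoxia. Bnip3 was at 7.68, 9.19 and 10.01 in the FAP depleted tumours, against 8.24, 7.62 and 10.06 in the FAP-TK control tumours. Its range within each of these groups was over 2 log2 units, and the difference was 0.32 ± 0.72. It was at 9.11, 9.28 and 7.99 in the tumours labelled aSMA depleted, against 7.96, 7.28 and 8.26 in the aSMA-TK control tumours. Ndrg1 was at 8.33, 9.20 and 10.67 in the FAP depleted tumours, against 7.92, 8.72 and 7.48 in the FAP-TK control tumours, where 2 depleted tumours were above all controls (unadjusted p = 0.033 and adjusted p = 1.00, limma). Without FAP depleted replicate 3 its difference was 0.73. Ndrg1 was at 8.84, 9.56 and 8.52 in the tumours labelled aSMA depleted, against 7.93, 8.11 and 8.52 in the aSMA-TK control tumours, a difference of 0.79 ± 0.55.

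**Figure D3:**
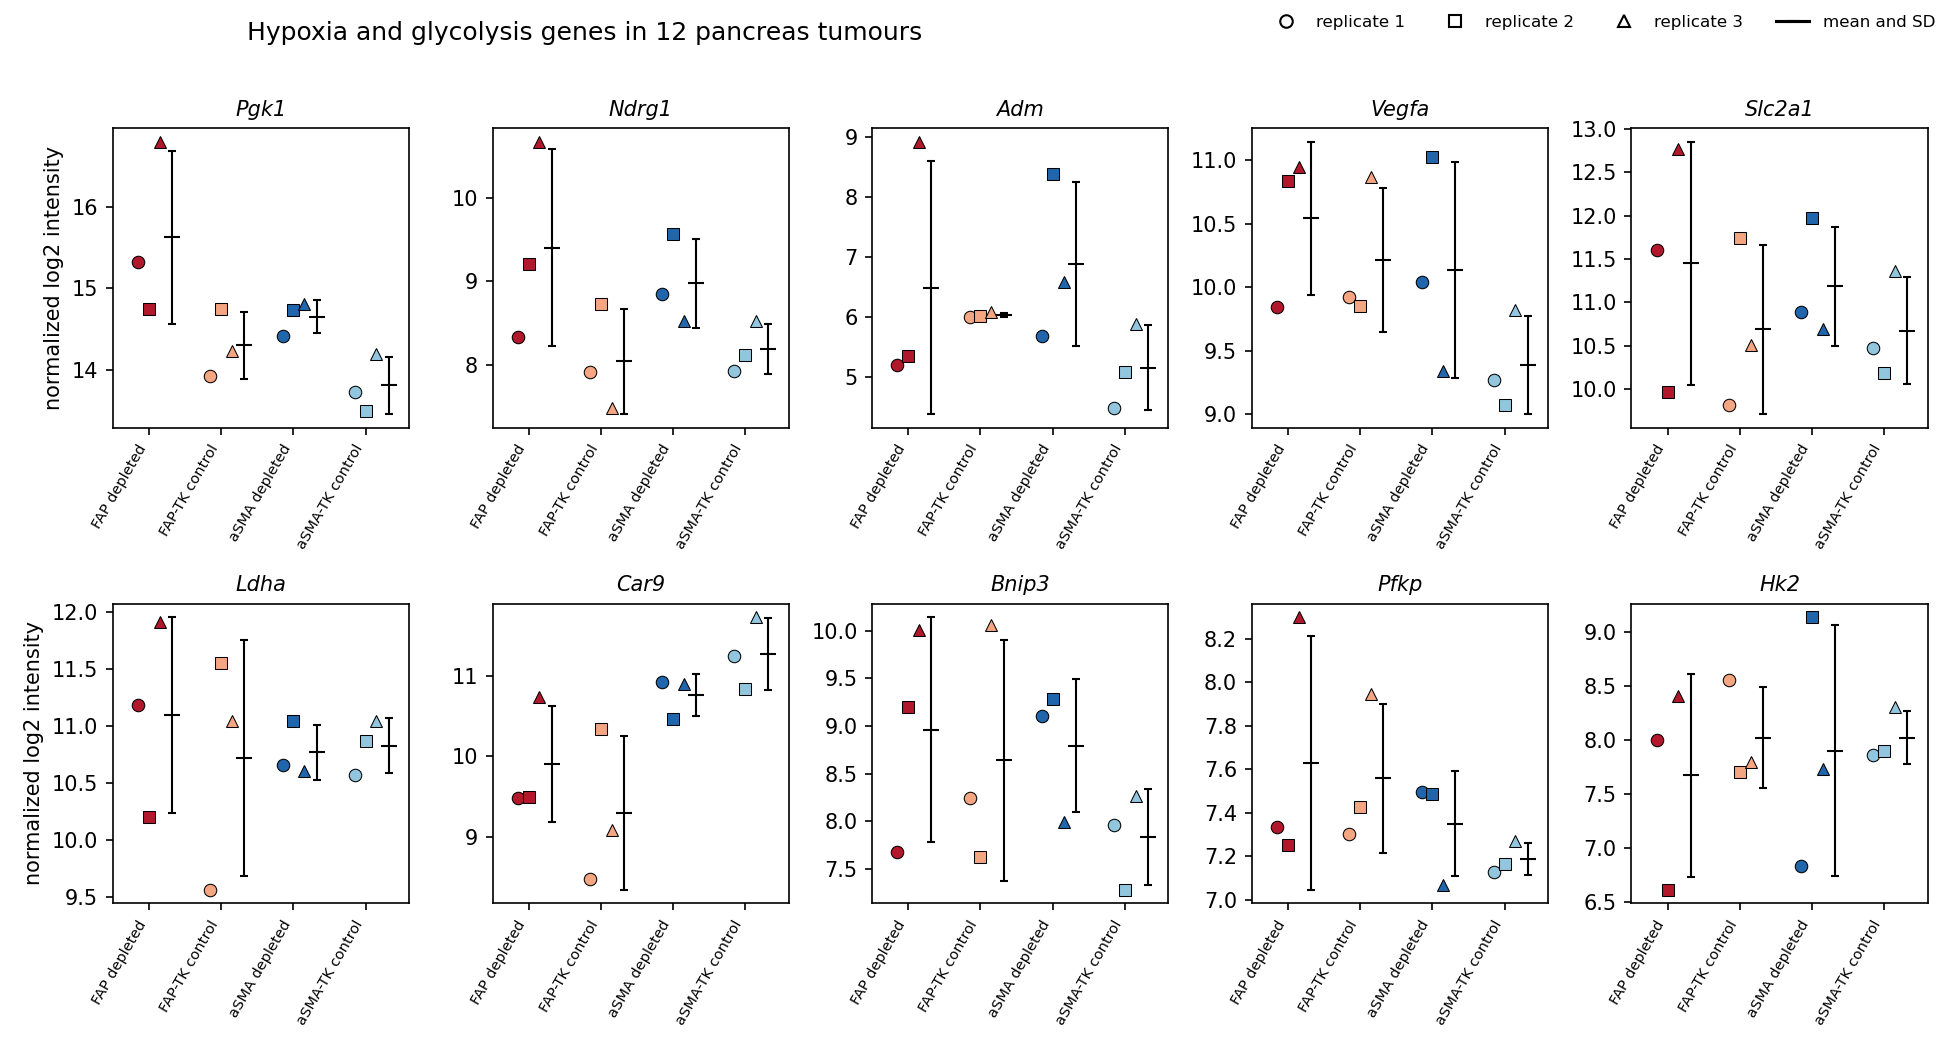
Normalized log2 intensity (vertical axis, a scale of its own in each panel) of the 10 genes in the 4 groups (horizontal axis). Points are single tumours, marker shapes are replicates, and bars are the mean and SD of 3 tumours. FAP depleted replicate 3 (dark red triangle) is the highest of the 12 tumours for 6 of the 10 genes, and Car9 is higher in the aSMA-TK control tumours than in the FAP-TK control tumours.

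The sizes of the depletion differences in the FAP and aSMA lines were set against each other in an interaction. None of the 10 genes passed it, and 0% of all genes did, with 1796 of the 30142 genes at an unadjusted p under 0.05 (5.96%, limma). Car9 had the smallest unadjusted p of the 10, at 0.136. Pgk1 differed between the effects by 0.48 ± 0.64, Ndrg1 by 0.58 ± 0.78 and Adm by -1.27 ± 1.37, as FAP line minus aSMA line. Without FAP depleted replicate 3 the values were -0.11 for Pgk1, -0.06 for Ndrg1 and -2.49 for Adm.

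**Figure D4:**
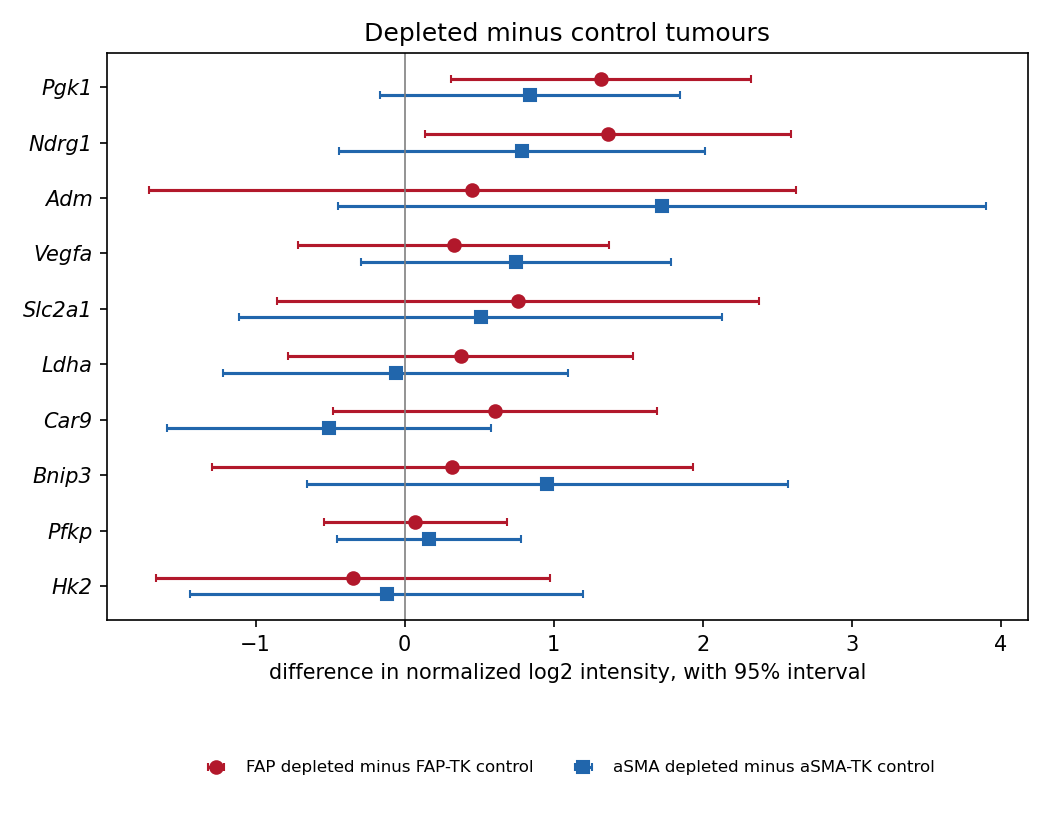
Difference of depleted minus control tumours for each of the 10 genes (log2, horizontal axis), with 95% intervals from limma and 3 tumours per group. Red circles are the FAP line and blue squares the aSMA line. The intervals leave out 0 for Pgk1 and Ndrg1 in the FAP line, before adjustment over all genes, and for no gene in the aSMA line.

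By group mean, 7 of the 10 genes were highest in the FAP depleted tumours, all but Adm, Car9 and Hk2, and 6 were lowest in the aSMA-TK control tumours. Adm had its highest mean in the tumours labelled aSMA depleted (6.88 ± 1.37) and its lowest in the aSMA-TK control tumours (5.15 ± 0.70). Car9 ran from aSMA-TK control (11.27 ± 0.45) through aSMA depleted (10.76 ± 0.26) and FAP depleted (9.91 ± 0.72) to FAP-TK control (9.30 ± 0.95, SD, n = 3 each), and values of neighbours in this order overlapped. Hk2 means lay between 7.67 and 8.02, closer together than the 3 tumours within any group.

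The lines were also compared directly. Between the control groups, Car9 was the one member that passed the test: it was higher in the aSMA-TK control tumours, at 11.24, 10.84 and 11.73, against 8.48, 10.34 and 9.08 in the FAP-TK control tumours, by 1.97 ± 0.49 (adjusted p = 0.0417, limma). It was 1 of 10 members, against 7.8% of all genes and 4.78% in the higher direction. The groups did not overlap for Car9 or, in the lower direction, for Adm (-0.88 ± 0.97), Vegfa (-0.82 ± 0.47) and Pfkp (-0.37 ± 0.27), so 4 of the 10 genes did not overlap, against 35% of all genes and 13.8% in the lower direction. The array background of the lines differed too, so line and background cannot be told apart. Ductal epithelial markers were higher for 7 of 8 in the aSMA-TK control tumours, with 2 called and list means of 13.70 to 14.36, against 12.80 to 13.82 in the FAP-TK control tumours. Acinar markers were higher for 7 of 7, with list means of 9.18 to 10.66, against 6.92 to 8.58 in the FAP-TK control tumours, and the part of either list in the Car9 difference was not tested. Car9 differed by 0.93 without the 3 arrays of low control-probe separation, where FAP-TK control replicate 2 was the only FAP-TK control left. With the separation as a covariate it differed by 1.21 (adjusted p = 0.147, limma). The call was lost without any 1 of 8 arrays (all 3 aSMA-TK controls, FAP-TK control replicates 1 and 3, aSMA depleted replicates 2 and 3, FAP depleted replicate 1), with adjusted p of 0.0559 to 0.113 (limma). It did not pass on the deposited values (1.23, adjusted p = 0.0687), where the median of all genes was shifted by -0.39 between these groups.

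Between the depleted groups no member passed the test, against 5.18% of all genes. Pgk1 was lower in the tumours labelled aSMA depleted than in the FAP depleted tumours, with a difference of -0.97 ± 0.45 (adjusted p = 0.220), and Car9 was higher by 0.85 ± 0.49 (adjusted p = 0.306, limma). None of the 10 was without overlap, against 32.9% of all genes. On the deposited values Pgk1 and Pfkp passed, where the median of all genes was shifted by -0.45. The F test for any difference among the 4 groups was passed by 6.68% of all genes and by no member, with Car9 at an adjusted p of 0.0878 as the smallest.

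Most pairs of the 10 genes had a positive correlation from tumour to tumour within groups, and 1 of the 45 pairs passed the adjusted test. No such correlations were computed for pairs drawn from all genes. Correlations were computed across the 12 tumours after each gene was centred within its group, so that group differences do not enter. Both genes of a pair were read from the same arrays, so depth of signal and RNA quality of an array touch both. Of the 45 pairs 44 had a positive Pearson correlation, with a median of 0.56 and a range from -0.04 (Car9 with Hk2) to 0.88 (Slc2a1 with Ldha). Without the 2 tumours farthest from the median of the first gene, the median over pairs was 0.31 and 3 pairs were not positive. Within the FAP line the median was 0.55 and 41 pairs were positive, and within the aSMA line it was 0.65 and 38 were. Vegfa and Bnip3 had r = 0.87 and rho = 0.94. By exact permutation within groups (1296 permutations), both had p = 0.000772, which is the lowest value possible, and an adjusted p of 0.0347 over the 45 pairs. Their r was 0.89 without the 2 tumours farthest from the median, 0.97 within the FAP line and 0.86 within the aSMA line. No other pair passed the adjustment. Slc2a1 and Ldha had r = 0.88 and rho = 0.88, with exact permutation p of 0.00772 and 0.0054 and adjusted p of 0.113 and 0.122.

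The plot of correlations shows 2 sets of genes over the 12 tumours, picked out after their values were seen. Slc2a1, Pgk1, Ldha and Car9 correlated with each other at 0.73 to 0.88, and with Vegfa and Bnip3 at 0.05 to 0.27. Within the FAP line these ranges were 0.82 to 0.93 and -0.09 to 0.26. Within the aSMA line they were -0.09 to 0.82 and -0.05 to 0.93, so the sets did not separate there.

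**Figure D5:**
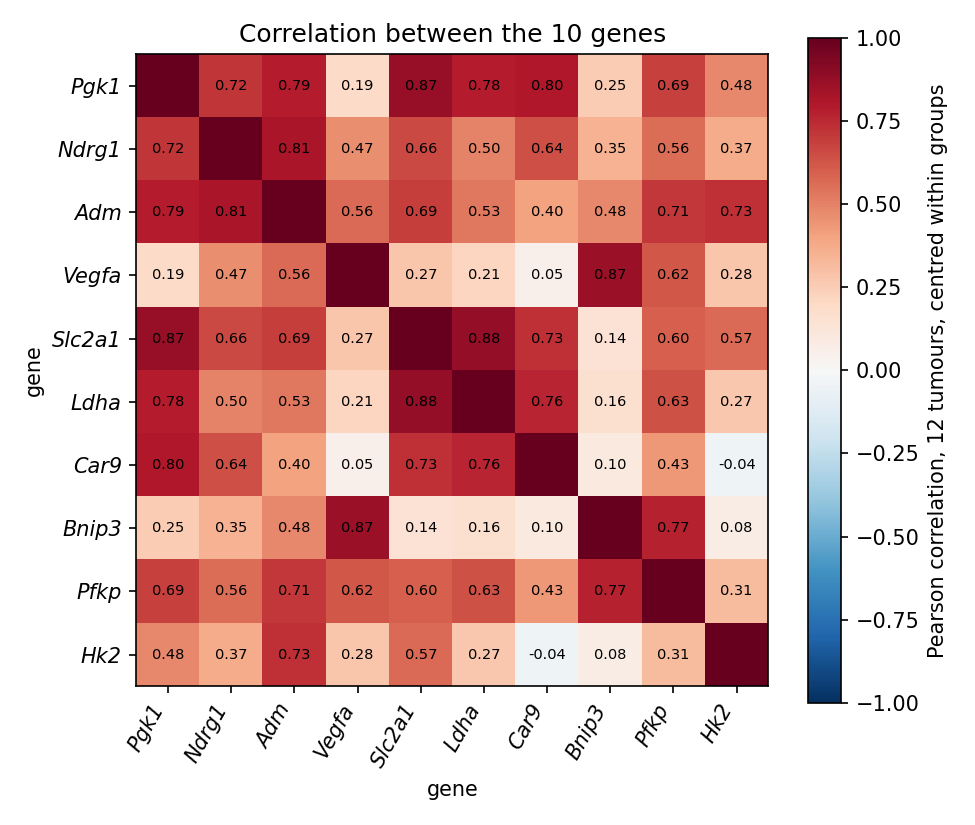
Pearson correlation of each pair of the 10 genes across 12 tumours, after centring within the 4 groups (colour and printed value, from -1 to 1). The highest value off the diagonal is 0.88, for Slc2a1 with Ldha, and the one below 0 is -0.04, for Car9 with Hk2.

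Genes outside the 10 were ranked by their correlation with the mean of the 10, centred in the same way, over 20315 named genes and 12 tumours. The first 5 were Tas1r2 (r = 0.963), Slc16a3 (0.947), Trim15 (0.939), Kcne4 (0.936) and Pfkl (0.934). Tas1r2 was above the negative-control median on 0 of the 12 arrays, Kcne4 on 1, Trim15 on 6, Slc16a3 on 9 and Pfkl on 12. Slc16a3 encodes the lactate exporter MCT4 and Pfkl the liver form of phosphofructokinase, and both were in the lists of related genes described next. Slc16a3 was at 5.48, 5.36 and 6.33 in the FAP depleted tumours, against 5.26, 5.68 and 5.71 in the FAP-TK control tumours. Pfkl was at 7.88, 7.70 and 8.93 in the FAP depleted tumours, against 7.45, 7.89 and 7.87 in the FAP-TK control tumours. Both were highest of their line in FAP depleted replicate 3. This largely follows from how they were picked, since the mean of the 10 genes was highest in that tumour too. Tas1r2, a sweet taste receptor gene, ran from 3.93 to 4.26 over the 12 tumours, a range too small for its correlation to say much.

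Of the other glycolytic enzymes, 15 of 19 listed were measured, and none passed the test in a depletion comparison. In the FAP depleted tumours 9 were higher and 6 lower, with a median difference of 0.10. In the tumours labelled aSMA depleted 11 were higher and 4 lower, with a median of 0.06. Of all genes 59.9% were higher in the FAP line and 53.2% in the aSMA line, for this list and those below. Values of 1 higher and 1 lower gene did not overlap in the FAP line, against 8.1% of all genes. In the aSMA line those of 3 higher and 1 lower did not, against 12.5% of all genes. Hk1, the hexokinase of most tissues, was higher by 0.77 ± 0.32 in the FAP line, and by 0.53 without FAP depleted replicate 3. Eno2, the neuronal form of enolase, was above the median of the negative-control probe sets on none of the 12 arrays, so no size of difference is given for it. Eno2 passed the test between the control groups, whose array background differed in the same direction, at 4.01, 4.06 and 4.11 in the aSMA-TK control tumours, against 4.69, 4.81 and 5.07 in the FAP-TK control tumours (adjusted p = 0.00743, limma). Ldhb, the heart-type lactate dehydrogenase subunit, differed by 0.27 ± 0.17 and Pfkm, the muscle phosphofructokinase, by 0.23 ± 0.20 in the aSMA line.

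Transporters of glucose and lactate and regulators of glycolysis were measured for 11 of 13 genes. In the FAP line 8 were higher, with a median of 0.05, and in the aSMA line 9 were higher, with a median of 0.32; none passed. Pdk1 and Pdk4 encode kinases that close the entry of pyruvate to the mitochondrion. Pdk1 differed by 0.38 ± 0.20 in the FAP line, and by 0.17 without FAP depleted replicate 3. Pdk4 was at 7.24, 12.52 and 12.81 in the FAP depleted tumours, against 13.35, 7.27 and 6.85 in the FAP-TK control tumours, so that it split both groups and its difference of 1.70 ± 1.83 describes neither. The glucose transporter gene Slc2a3 differed by 0.47 ± 0.21 and Pdk3 by 0.66 ± 0.37 in the aSMA line, with Slc2a3 above the negative-control median on 1 of the 12 arrays. Depleted and control values of 4 of the 11 genes did not overlap there, all in the higher direction, against 7.43% of all genes. In the FAP line no gene of the 11 was without overlap, against 8.1% of all genes.

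Other hypoxia-induced genes were measured for 24 of 25. They were higher for 19 in the FAP line and for 21 in the aSMA line, with a median of 0.30 in each, and none passed the test. The share of all genes that were higher was 59.9% in the FAP line and 53.2% in the aSMA line. No gene of the 24 was without overlap in the FAP line, against 8.1% of all genes. In the aSMA line 3 of the 24 were, all in the higher direction, against 7.43% of all genes. Angptl4, a secreted inhibitor of lipoprotein lipase, differed by 1.55 ± 0.70 in the FAP line. It was above the negative-control median on 9 of the 12 arrays, so part of its range lay near the array's background. Ak4, a mitochondrial adenylate kinase gene, was above the negative-control median on none of the 12 arrays. Rora, a nuclear receptor gene, differed by 0.65 ± 0.28 in the aSMA line and Lox, which encodes a collagen cross-linking enzyme, by 2.23 ± 1.18. Lox is made by fibroblasts too, and the fibroblast markers were higher for 7 of 7 in the aSMA line, with list means of 9.71 to 11.22 in the tumours labelled aSMA depleted, against 9.10 to 9.95 in the aSMA-TK control tumours. Their part in the Lox difference was not tested.

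The HIF pathway itself was measured for all 13 genes listed, and none passed the test. In the FAP line 9 were higher, with a median of 0.06, and in the aSMA line 11 were higher, with a median of 0.39. Hif3a, whose product is mostly an inhibitor of the other HIFs, was at 6.60, 6.15 and 5.69 in the tumours labelled aSMA depleted, against 4.99, 4.74 and 4.73 in the aSMA-TK control tumours. The groups did not overlap, and the difference of 1.33 ± 0.34 had an unadjusted p of 0.00311 and an adjusted p of 0.944 (limma). Hif3a was above the negative-control median on 8 of the 12 arrays, so part of its range lay near the array's background. No gene of the 13 was without overlap in the FAP line, against 8.1% of all genes. In the aSMA line 3 of the 13 were, all in the higher direction, against 7.43% of all genes. Siah1a, which encodes a ubiquitin ligase that acts on the oxygen sensors, differed by 0.66 ± 0.27 there. In the FAP line Epas1, which encodes HIF-2 alpha, differed by 0.83 ± 0.44 and Arnt, the shared partner, by -0.37 ± 0.19. Without FAP depleted replicate 3 Epas1 differed by 0.39 and Arnt by -0.48.

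Ligands, receptors and partners of Vegf and adrenomedullin were measured for 13 of 14 genes. In the FAP line 7 were higher, with a median of 0.07, and in the aSMA line 9 were higher, with a median of 0.18; none passed. Ramp3, which encodes a subunit of an adrenomedullin receptor, was at 5.46, 5.04 and 5.10 in the tumours labelled aSMA depleted, against 4.72, 4.58 and 4.66 in the aSMA-TK control tumours. The groups did not overlap, and the difference was 0.55 ± 0.13 (unadjusted p = 0.0015, adjusted p = 0.944, limma). Depleted and control values of 4 of the 13 genes did not overlap in the aSMA line, all in the higher direction, against 7.43% of all genes. In the FAP line no gene of the 13 was without overlap, against 8.1% of all genes. Ramp3 was above the negative-control median on 3 of the 12 arrays. Vegfc, a lymphatic growth factor gene, differed by 0.42 ± 0.23 in the aSMA line. Vegfd, the gene of a related factor, differed by -0.76 ± 0.32 in the FAP line. Adm2 was above the negative-control median on none of the 12 arrays. Endothelial markers, which mark the cells that Vegfa acts on, averaged 4.89 to 7.30 over the 12 tumours. They were at 4.89 to 6.61 in the FAP depleted tumours, against 4.94 to 7.03 in the FAP-TK control tumours, and at 6.39 to 7.30 in the tumours labelled aSMA depleted, against 6.21 to 6.75 in the aSMA-TK control tumours.

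Relatives of Ndrg1 and Car9 were measured for all 10 genes listed. In the FAP line 7 were higher, with a median of 0.06, and none passed. In the aSMA line 8 were higher, with a median of 0.12, and none passed. No gene of the 10 was without overlap in the FAP line, against 8.1% of all genes. In the aSMA line 2 of the 10 were, both in the higher direction, against 7.43% of all genes. Ndrg2, a relative of Ndrg1, differed by 0.69 ± 0.46 in the FAP line and by 1.25 ± 0.46 in the aSMA line. Without FAP depleted replicate 3 its FAP line difference was 0.16. Car8 differed by 0.68 ± 0.65 in the FAP line. Car1, the carbonic anhydrase of red cells and gut, lay between 3.18 and 3.46 in 11 tumours and at 9.12 in aSMA-TK control replicate 1, and that tumour gave its difference of -1.93 ± 1.23 in the aSMA line.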

How the data were processed

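RNA from 12 pancreas tumours was measured on 1 one-colour array each, 3 tumours per group. Trizol extraction is stated in the labels' protocols, which name an Illumina labelling kit, while the probe set identifiers are of the Affymetrix whole-transcript kind. The deposited log2 values are the authors' processed values, made from the scans by steps that no source used here gives. The scale was read from their range of 1.64 to 19.93. The submitters' processing notes name limma. Since array quantiles differed, the 65956 probe sets that are not controls were quantile normalized. Probe sets with 1 symbol were kept (30604, with 827 symbols updated through RefSeq GRCm38.p6), and the one with the highest mean for each of 30142 genes.

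With limma 3.58.1 (R 4.3.3), a mean per group was fitted to the 12 arrays (empirical Bayes, two-sided), and p was adjusted by the Benjamini-Hochberg method over all 30142 genes, with a call at an adjusted p under 0.05. Replicate numbers follow the order of the samples and pair nothing. On simulated data for the FAP comparison (30142 genes), 46% of 50 genes changed by 1 log2 unit and 78% of 50 changed by 2 were recovered. The same data held 50 genes changed by 4 and 50 by 6, and 11 unchanged genes were called. Noise was drawn for each gene on its own, so these shares do not tell how often a change in the members would be called. The number of arrays limits the precision. Correlations used exact permutations within groups. Named genes of each list are the 2 of smallest unadjusted p in each depletion comparison, plus any called. The members and lists were chosen with earlier results of these data known. Alternatives were no normalization, centring on array medians, an offset of 50, leaving out dim genes, averaging a gene's probe sets, fitting the compared groups alone, a trended and robust variance, array weights, control-probe separation as a covariate, leaving out 3 arrays of low separation or each array in turn, an unmoderated two-sample test and an adjusted p under 0.1. The chromosome X probe set of Pgk1 was chosen after seeing the data.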

Additional observations from a re-analysis of the deposited data

How the results depend on the processing

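Across 25 alternatives, 651 of 701 member values kept their direction and their side of the threshold, 31 reversed, 16 no longer passed and 3 newly passed. Many could not change direction, since leaving out an array outside the comparison, or changing the variance alone, keeps a difference as it is. Only Car9 between the controls passed to begin with, so for the others keeping a side of the threshold says little. In the depletion comparisons no member passed under any alternative run, and the smallest adjusted p was 0.122. Of 553 values of named pathway genes 550 kept both; Eno2 between the controls had adjusted p of 0.0544 with only the groups compared, 0.0501 without the 3 arrays of low separation and 0.0766 by the unmoderated test, and kept its direction in all 22 alternatives. Reversed in the FAP line were Pfkp (-0.026 as deposited, -0.027 median centred, -0.20 with array weights), Vegfa (-0.36), Bnip3 (-1.04) and Hk2 (0.067) with array weights, and Ldha (-0.011), Car9 (-0.23) and Hk2 (0.50) without the 3 arrays of low separation. Reversed in the aSMA line were Ldha and Hk2, at 0.032 and 0.018 as deposited, 0.11 and 0.096 median centred, and 0.020 and 0.25 with array weights. The interaction of Ndrg1 was -0.0055 without the 3 arrays, and Pgk1 between the controls was 0.22 by its chromosome X probe set. With 1 array left out, FAP line differences ran from -0.76 to 1.10 for Adm, -0.20 to 1.03 for Bnip3, -0.72 to 0.18 for Hk2, -0.20 to 0.82 for Ldha and -0.26 to 0.26 for Pfkp, aSMA line differences from -0.74 to 0.41 for Hk2 and -0.20 to 0.048 for Ldha, and the interaction from -0.056 to 1.11 for Ndrg1 and -0.11 to 0.92 for Pgk1. Car9 between the controls passed in 7 of 23 alternatives (1 array left out, 1.56 to 2.49).

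Genes called between the controls numbered 2350, against 12443 as deposited, 5769 median centred, 0 with the filter on dim genes (4518 genes and 7 members kept), 1536 with the offset, 212 with only the groups compared, 6658 with array weights, 1012 with the covariate, 357 without the 3 arrays, 63 by the unmoderated test and 5104 at an adjusted p under 0.1. Members called there were 2 as deposited and 0 under median centring, the filter, the offset, only the groups compared, the covariate, without the 3 arrays and by the unmoderated test; their median difference was -0.87 as deposited. Between the depleted groups 1562 were called, against 14287, 3391, 18, 1, 4502, 634, 0 and 3501 as deposited, median centred, filtered, with only the groups compared, with array weights, without the 3 arrays, by the unmoderated test and at 0.1, with 2 members as deposited. For the F test 2014 were called, against 14286, 4998, 20, 7235, 536, 515 and 4161 as deposited, median centred, filtered, with array weights, with the covariate, without the 3 arrays and at 0.1, with 4 members as deposited, 2 with array weights and 1 at 0.1. Of the calls between the controls 61.3% were in the higher direction, against 3.41% as deposited and 57.9% median centred; between the depleted groups it was 52.9%, against 2.32% and 64.9%. The FAP line had 13 calls without the 3 arrays. With 1 array left out, calls ran from 0 to 4 in the FAP line (highest without FAP depleted replicate 2), 0 to 16 in the aSMA line (aSMA depleted replicate 3), 0 to 1 in the interaction (aSMA-TK control replicate 1), 374 to 1874 between the depleted groups (lowest without FAP depleted replicate 1), 508 to 3130 between the controls (0 to 1 members, lowest without aSMA-TK control replicate 2) and 871 to 2477 for the F test (0 to 1 members, lowest without FAP depleted replicate 1). Without FAP-TK control replicate 2 each of the last 3 was highest. No paired analysis was possible because the labels give no replicate numbers. Adm and Pfkp were above the 95th percentile of the negative controls on 0 of 12 arrays and Hk2 on 1. Causes of these changes were not tested.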
